A study of Mus musculus with 4 samples.

Results

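Matrix metalloproteinases (MMPs) are zinc-dependent proteases that cut extracellular matrix and cell-surface proteins, and the tissue inhibitors of metalloproteinases (TIMPs) block their active sites. Most MMPs are secreted as inactive precursors that other proteases activate. In the central nervous system they are known for remodelling the matrix around blood vessels and for the passage of leukocytes, and different cell types make different members of the family. The 8 genes described here are 5 proteases, Mmp2, Mmp8, Mmp9, Mmp12 and Mmp14, and 3 inhibitors, Timp1, Timp2 and Timp3, out of 32285 genes in the count tables. They were taken by name, not by their values, and were followed as counts per 1000000 (CPM) and as the share of positive cells in each marker-defined cell type of mouse spinal cord, with Mmp12 also followed over single microglia-like cells.

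Single cells were sequenced from 4 spinal cord suspensions of mice that differed in the P301S tau transgene, in CD8 and in age, a design that asks about CD8 T cells and microglia in tauopathy. The first group was homozygous (hom) for P301S and labelled CD8 KO, at an age of 30 weeks. The second was P301S hom and CD8 WT at 33 weeks, the third P301S hom and CD8 WT at 30 weeks, and the fourth negative (neg) for P301S and CD8 WT at 30 weeks. Each group was 1 library of 2 pooled cords, from saline-perfused mice, dissociated enzymatically and depleted of myelin with beads. The labels do not say which gene the CD8 KO altered or which promoter drives the transgene. The 3 CD8 WT groups are called P301S hom at 33 weeks, P301S hom at 30 weeks and P301S neg below.

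The deposited tables held 5443 cell barcodes in the library labelled CD8 KO, 5661 in P301S hom at 33 weeks, 5107 in P301S hom at 30 weeks and 6433 in P301S neg, with 36331214 to 43531426 unique molecular identifiers (UMIs, each standing for 1 captured transcript) per library. After filtering, 20186 of 22644 cells were kept, and any pair of libraries shared 3 to 12 kept barcodes. With 1 library per group no difference could be tested, and every interval below is a 95% interval that covers counting error only, not the spread between mice. Intervals of levels and ratios treat each UMI as independent, so they are too narrow where few cells hold most UMIs of a gene. Cd8a in T-cell-like cells was 16.4 CPM (UMIs of a gene per 1000000 UMIs of all genes in a class) in the library labelled CD8 KO, 190.4 CPM in P301S hom at 33 weeks, 269 CPM in P301S hom at 30 weeks and 232 CPM in P301S neg. The CD8 KO value was low but not at 0, and the endothelial-like cells of that library had 120.3 CPM, against 0 in those of the other 3, so the sample is called by its label throughout. Sexes also differed: among cells whose sex transcripts gave a call, 3089 were male and 4 female of 5066 kept cells within the library labelled CD8 KO, 3723 were female and 0 male of 4692 in P301S hom at 30 weeks, and the other libraries held both. A neuron-marker cluster of 154 cells, led by Calca and Sncg, occurred in the library labelled CD8 KO alone, and neutrophil-like cells were 4.17% of kept cells there, against 10.9 to 13.1% in the other 3 libraries. The labelled mixture of leukocytes and cord cells was met by microglia-like, endothelial-like, ependymal-like, astrocyte-like and leukocyte-like classes.

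Promoter sequence is shown for the 3 members that were at least 1.5-fold higher in the microglia-like cells of P301S hom than of P301S neg, Mmp12, Mmp14 and Timp2. Each line gives RefSeq sequence of mouse GRCm38.p6 running 250 bases before to 50 bases after an annotated start, 5′ to 3′ on the gene's strand, with any TGANTCA, the letters bound by AP-1 factors and their own reverse complement, in capitals. Mmp12 has 2 annotated starts, and the second is printed because the letters occur there, at chr9:7347124-7347423 on the plus strand; Mmp14 is at chr14:54431348-54431647 on the plus strand and Timp2 at chr11:118355362-118355661 on the minus strand.
Mmp12: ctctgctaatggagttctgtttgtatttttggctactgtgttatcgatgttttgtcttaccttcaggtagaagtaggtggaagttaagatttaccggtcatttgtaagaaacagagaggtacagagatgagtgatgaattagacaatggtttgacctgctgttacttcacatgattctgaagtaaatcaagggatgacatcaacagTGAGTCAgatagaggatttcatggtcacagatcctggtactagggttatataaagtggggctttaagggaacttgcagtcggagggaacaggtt
Mmp14: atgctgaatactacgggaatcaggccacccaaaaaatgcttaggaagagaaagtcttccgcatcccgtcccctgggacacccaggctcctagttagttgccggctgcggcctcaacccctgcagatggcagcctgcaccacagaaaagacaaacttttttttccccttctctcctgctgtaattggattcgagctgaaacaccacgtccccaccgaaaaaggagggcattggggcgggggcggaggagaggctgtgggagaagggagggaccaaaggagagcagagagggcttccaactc
Timp2: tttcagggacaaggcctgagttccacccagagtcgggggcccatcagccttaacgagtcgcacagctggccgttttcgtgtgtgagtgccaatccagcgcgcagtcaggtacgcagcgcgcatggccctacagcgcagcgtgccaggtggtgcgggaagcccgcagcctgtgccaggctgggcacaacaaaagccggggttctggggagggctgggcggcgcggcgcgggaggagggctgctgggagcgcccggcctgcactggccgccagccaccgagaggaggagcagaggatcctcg
The Mmp12 copy begins 44 bases before the start, and there was none in the other 6 promoters found for members, those of Mmp14, Timp2, Mmp8, Timp1, Timp3 and the first Mmp12 start. Of 32851 mouse promoters of this length, 2565 (7.81%) held the letters, so that a match by itself is common, and it describes the window without showing a bound site. The 3′ reads do not show which start was used. Mmp2 and Mmp9 were not in the promoter table.

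In annotation GENCODE M21 on mm10, Mmp12 (ENSMUSG00000049723) spans positions 7344381 to 7369499 of chromosome 9 on the plus strand and overlaps Mmp1b on the other strand, and Mmp8 (ENSMUSG00000005800) lies at 7558456 to 7568485 of the same chromosome. Mmp2 (ENSMUSG00000031740) spans 92827291 to 92853420 of chromosome 8, Mmp9 (ENSMUSG00000017737) spans 164940780 to 164955850 of chromosome 2 and Mmp14 (ENSMUSG00000000957) spans 54431612 to 54445364 of chromosome 14, all on the plus strand. Timp1 (ENSMUSG00000001131), at 20870166 to 20874735 of chromosome X, lies inside Syn1, and Timp3 (ENSMUSG00000020044), at 86300372 to 86349506 of chromosome 10, inside Syn3, each antisense to its neuronal host gene. Timp2 (ENSMUSG00000017466), at 118301069 to 118355740 of chromosome 11 on the minus strand, overlaps Cep295nl on the same strand. Whether the counting used strand is not given in the sources used here. Counting by strand separates the pairs that lie on opposite strands, but not Timp2 from Cep295nl.

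**Figure D1:**
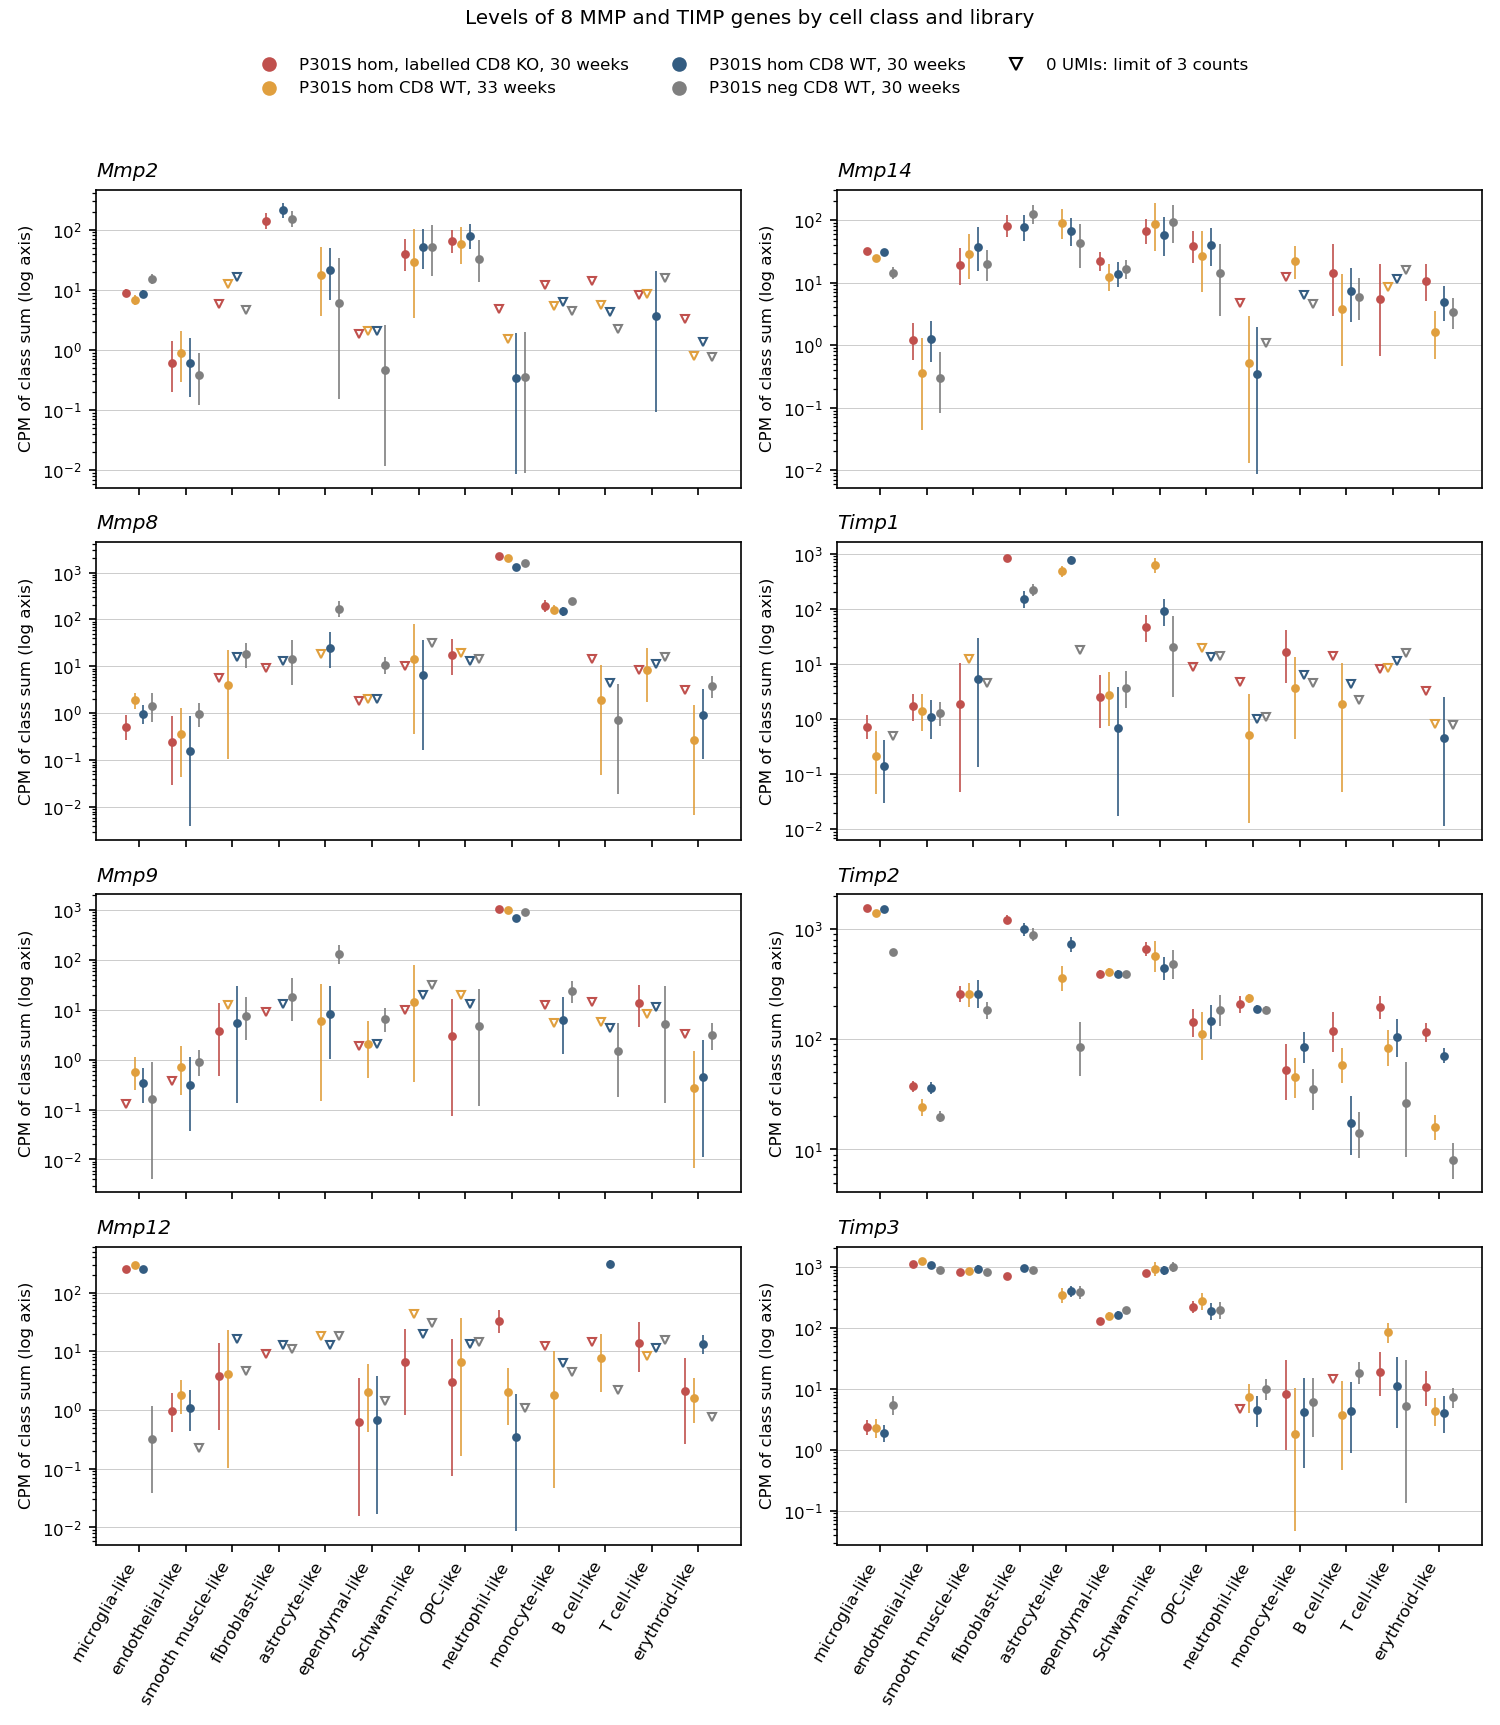
Level of each of the 8 genes, 1 panel per gene, in marker-defined classes (horizontal axis) of the 4 libraries, in CPM on a log axis, with 95% Poisson intervals and an open triangle at the limit of 3 counts where no UMI was found. Mmp12 and Timp2 stand highest or among the highest in microglia-like cells of the P301S hom libraries, Mmp8 and Mmp9 in neutrophil-like cells, Timp3 in endothelial-like, fibroblast-like and other vascular or Schwann-like cells, and Timp1 in astrocyte-like and fibroblast-like cells.

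The 8 genes differed in the classes that held them, as the panels of levels by class show. Microglia-like cells held 98.2% of all Mmp12 UMIs in the library labelled CD8 KO, 99.3% in P301S hom at 33 weeks and 95.3% in P301S hom at 30 weeks, and both of the 2 found in P301S neg. Neutrophil-like cells held 91.0 to 95.6% of Mmp8 UMIs and 94.4 to 98.6% of Mmp9 UMIs over the 4 libraries. Endothelial-like cells held 58.1 to 62.5% of Timp3 UMIs. Timp2, Mmp14 and Mmp2 were spread over microglia-like, fibroblast-like, glial and other cells, and Timp1 over 2 small classes.

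Mmp12, macrophage metalloelastase, which degrades elastin, was a gene of microglia-like cells of P301S hom mice. Its level there was 249 CPM (242 to 255) within the library labelled CD8 KO, 299 CPM (290 to 308) in P301S hom at 33 weeks, 256 CPM (249 to 263) in P301S hom at 30 weeks and 0.325 CPM (0.0393 to 1.17) in P301S neg. The 3 P301S hom libraries were within a narrow band, P301S hom at 33 weeks the highest, and the intervals of the other two overlapped, while P301S neg held 2 UMIs in 1309 cells. P301S hom at 30 weeks was 787-fold above P301S neg (218 to 6502), a ratio whose width comes from those 2 UMIs. P301S hom at 33 weeks was 1.17-fold above P301S hom at 30 weeks (1.12 to 1.22), and the library labelled CD8 KO stood at 0.974 times P301S hom at 30 weeks (0.938 to 1.01). Both of these last 2 ratios were under 1.5-fold, and all 3 ratios share the P301S hom library at 30 weeks. Their intervals treat each UMI as independent, but 1 cell held 531 of the 5750 Mmp12 UMIs in the library labelled CD8 KO. The intervals are thus too narrow and do not bound these ratios.

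Most microglia-like cells of P301S hom mice nonetheless had no Mmp12 UMI. It was found in 12.6% of 2326 cells in the library labelled CD8 KO, 13.7% of 1568 cells in P301S hom at 33 weeks, 14.9% of 1927 cells in P301S hom at 30 weeks and 0.153% of 1309 cells in P301S neg. After each cell was thinned at random to 1000 UMIs, which leaves out cells below that number (37, 46, 31 and 143 cells in the same order), the shares were 4.94%, 5.98%, 6.38% and 0%. In endothelial-like cells, which should lack the gene, it was found in 0.630%, 0.978%, 0.596% and 0% of cells in that order. Median depth was 9456, 8295.5, 10462 and 4986 UMIs in microglia-like cells and 4597.5, 3950, 4715 and 5566 UMIs in endothelial-like cells. The P301S hom microglia-like shares were thus far above this background with and without thinning, and the P301S neg share was below the shares in the P301S hom endothelial-like cells.

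Within the P301S hom libraries the UMIs were concentrated in few cells. In the library labelled CD8 KO, 2034 microglia-like cells had no Mmp12 UMI, 92 had 1, 64 had 2 to 4, 75 had 5 to 19 and 61 had 20 or more, up to 531 in 1 cell. P301S hom at 33 weeks had 1353, 58, 51, 58 and 48 cells in those ranges, with a highest count of 296. P301S hom at 30 weeks had 1639, 91, 55, 84 and 58 cells, with a highest count of 262. P301S neg had 1307 cells with none and 2 cells with 1 UMI each. The median over all cells was 0 in every library, and the median over positive cells was 4 UMIs in each P301S hom library. Cells with 20 or more UMIs were 2.62% of microglia-like cells in the library labelled CD8 KO, 3.06% in P301S hom at 33 weeks and 3.01% in P301S hom at 30 weeks, and they held 82.1%, 81.3% and 79.2% of all Mmp12 UMIs of the class. The 10% of cells with the most Mmp12 held 98.97%, 98.6% and 98.1% of them. This skew was alike in the 3 P301S hom libraries, and it remained after thinning: although medians over all cells were again 0, single cells then still reached 24, 26 and 23 UMIs of 1000.

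**Figure D2:**
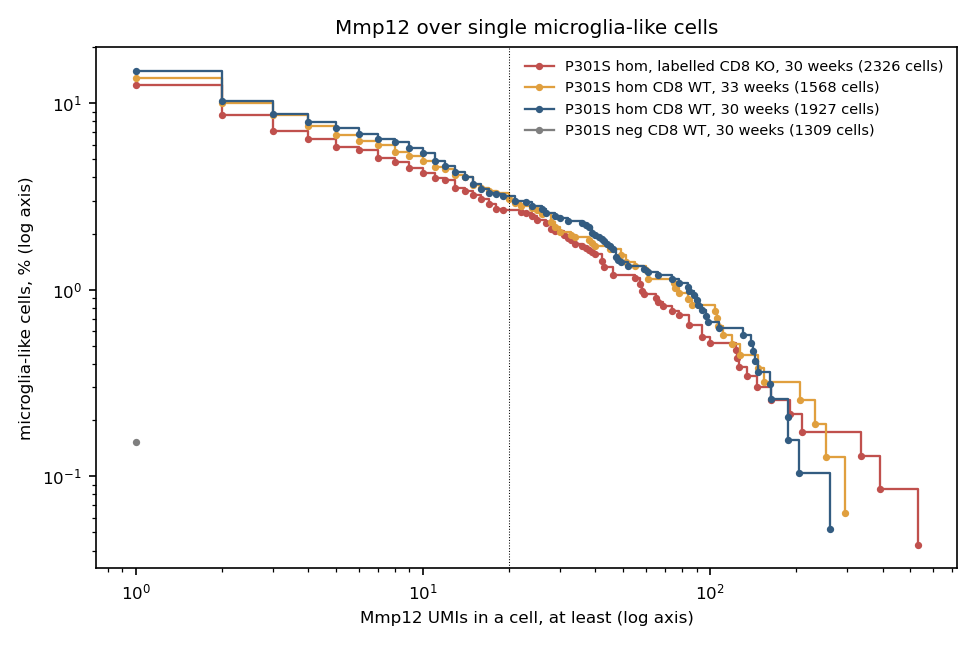
Share of microglia-like cells (vertical axis, percent, log scale) with at least the number of Mmp12 UMIs on the horizontal axis (log scale), 1 line per library, with a dotted line at 20 UMIs. The 3 P301S hom lines run close together, with 2.62 to 3.06% of cells at 20 or more UMIs, while P301S neg ends at 1 UMI.

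Microglia-like cells with 20 or more Mmp12 UMIs also differed in other genes. Cells with no Mmp12 UMI of the same library are the comparison, and since deeper cells are likelier to pass 20 UMIs, depth differed too: the medians were 17807, 16650 and 18810.5 UMIs in the Mmp12-high cells of the library labelled CD8 KO, P301S hom at 33 weeks and P301S hom at 30 weeks, against 8890, 7845 and 9893 UMIs in the cells without Mmp12. Spp1, which encodes osteopontin, a substrate of several MMPs, was at 23833, 24269.6 and 26503 CPM in Mmp12-high cells of these 3 libraries, against 3892, 2667 and 3854 CPM in cells without Mmp12. Adam8, a membrane protease of leukocytes, was at 241, 209.7 and 246 CPM against 27.3, 25.2 and 26.6 CPM. Fibronectin (Fn1) was at 282, 229 and 215 CPM against 94.6, 98.3 and 89.6 CPM. The hyaluronan receptor Cd44, which can hold Mmp9 at the cell surface, was at 147, 127 and 151 CPM against 50.8, 48.7 and 55.8 CPM. These 4 genes were higher in the Mmp12-high cells of every P301S hom library.

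Homeostatic microglial genes ran the other way. P2ry12, a purinergic receptor of surveying microglia, was at 17.4, 4.88 and 15.3 CPM in the Mmp12-high cells of the library labelled CD8 KO, P301S hom at 33 weeks and P301S hom at 30 weeks, against 355, 348 and 288 CPM in the cells without Mmp12. Tmem119 was at 21.1, 10.98 and 13.6 CPM against 241, 242 and 197 CPM. C1qa, a marker of the whole class, was lower but abundant, at 6233, 5280.2 and 5858 CPM against 11324, 11018 and 11144 CPM. Trem2, a lipid receptor, was close in both, at 2646, 2405 and 2786 CPM against 2743, 2962 and 2926 CPM. Markers of other macrophages were at or near 0 in the Mmp12-high cells: Mrc1 and Lyve1 of border macrophages had no UMI in any of the 3 libraries, Ccr2 had 1, 0 and 0 UMIs and the monocyte gene Ly6c2 had 1, 2 and 0 UMIs. Border macrophage-like cells themselves, 82 over the 4 libraries, held 1 Mmp12 UMI in all.

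The same contrast appeared between clusters, which were built without any Mmp or Timp gene. Cluster 2, led by Spp1 and Gpnmb, had 454 CPM of Mmp12 in the library labelled CD8 KO, 579.5 CPM in P301S hom at 33 weeks and 416 CPM in P301S hom at 30 weeks. Cluster 3, led by Gpnmb and Spp1, had 426, 355 and 310.5 CPM in the same order. Cluster 5, led by P2ry12 and Tmem119, had 3.64, 0 and 0 CPM, and 0.181 CPM in P301S neg. Even in cluster 2, Mmp12 was found in 31.1%, 36.4% and 29.7% of cells of the 3 P301S hom libraries, so that positive cells remained a minority. Cluster 2 made up 25.5% of microglia-like cells in the library labelled CD8 KO, 23.0% in P301S hom at 33 weeks, 31.3% in P301S hom at 30 weeks and 0.153% in P301S neg, and cluster 3 made up 17.4%, 23.3%, 20.8% and 0.153%. Cluster 5 made up 13.2%, 14.6%, 9.60% and 79.2% in the same order. The Mmp12 difference between P301S hom and P301S neg came with this different make-up of the class, and P301S neg had too few cells in clusters 2 and 3 for a comparison within them. Cluster 22, a low-UMI cluster led by Spp1 and C1qa, had cells of all 4 libraries, and Mmp12 was at 252, 269 and 358 CPM in the 143, 122 and 112 cells of the 3 P301S hom libraries, against 0 in 223 cells of P301S neg, with an upper limit of 13.8 CPM. Median depth in this cluster was 2859, 2170.5 and 2471 UMIs in the P301S hom libraries, against 971 UMIs in P301S neg. At resolution 2, a microglia-like cluster with a median of 1139 UMIs and P2ry12 and Gpr34 among its leading genes held 58, 63, 50 and 264 cells. Another, with a median of 3431.5 UMIs and led by Spp1 and Gpnmb, held 97, 66, 72 and 5 cells. Which of these the cells of cluster 22 joined was not examined, so whether it holds the same cell states in each library is not known.

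**Figure D3:**
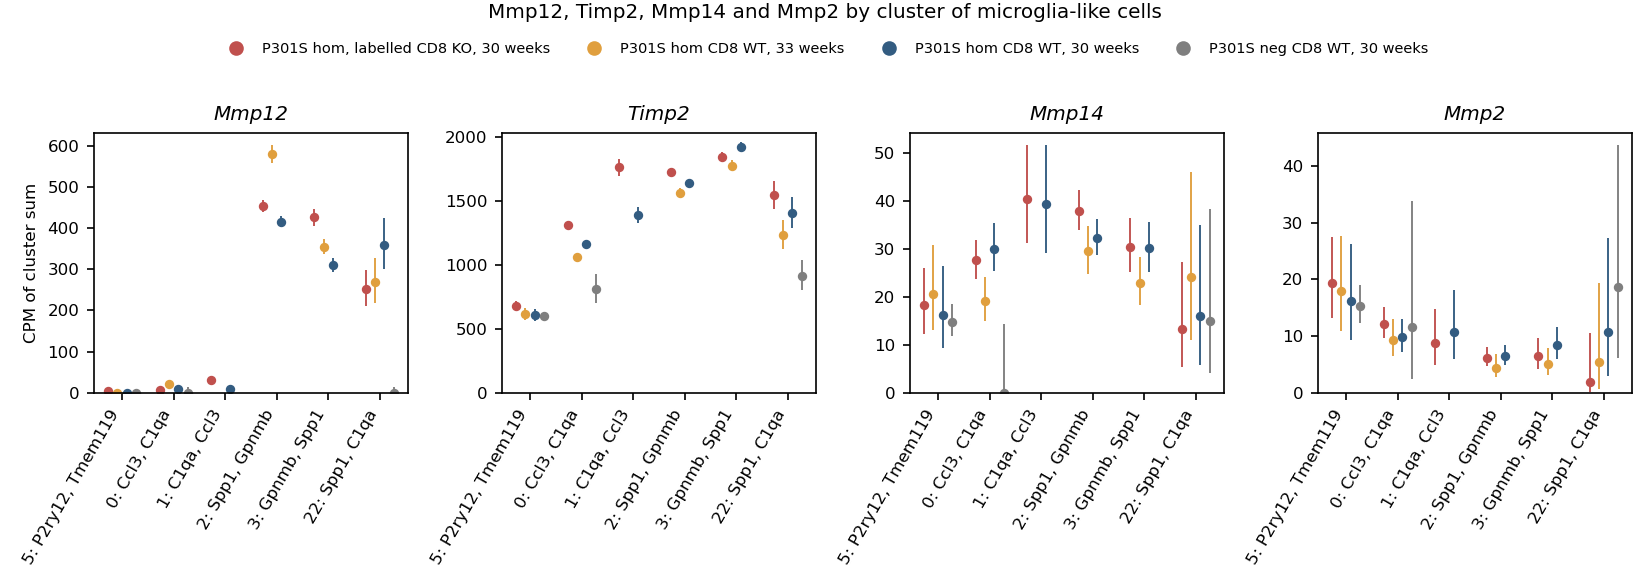
CPM of Mmp12, Timp2, Mmp14 and Mmp2 (1 panel each) by cluster of microglia-like cells and library, with 95% Poisson intervals. Mmp12 is highest in clusters 2, 3 and 22 of the P301S hom libraries and at 0 to 3.64 CPM in cluster 5 (P2ry12, Tmem119), Timp2 is lowest in cluster 5 of each P301S hom library, and Mmp2 is highest there.

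Timp2, an inhibitor that also takes part in the activation of Mmp2 by Mmp14 at the cell surface, was found in nearly every microglia-like cell of P301S hom mice. It stood at 1537 CPM (1521 to 1553) within the library labelled CD8 KO, 1382 CPM (1363 to 1402) in P301S hom at 33 weeks, 1513 CPM (1496 to 1530) in P301S hom at 30 weeks and 622 CPM (603 to 642) in P301S neg. P301S neg was the lowest, and among the P301S hom libraries only the library labelled CD8 KO and P301S hom at 30 weeks had overlapping intervals. The share of positive cells was 96.9%, 94.1%, 96.5% and 77.7% in that order, and 71.0%, 63.4%, 70.4% and 40.7% after thinning, against 8.57%, 6.54%, 2.82% and 3.35% of B-cell-like cells, whose median depth was 2078, 2055, 2345.5 and 2473.5 UMIs. The ratio of P301S hom at 30 weeks to P301S neg was 2.43 (2.35 to 2.51). The library labelled CD8 KO was 1.02-fold above P301S hom at 30 weeks (1.001 to 1.03), and P301S hom at 33 weeks stood at 0.914 times it (0.898 to 0.930).

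Unlike Mmp12, Timp2 was also well above the B-cell-like background in P2ry12-high microglia. In cluster 5 it stood at 679 CPM in the library labelled CD8 KO, 612 CPM in P301S hom at 33 weeks, 606 CPM in P301S hom at 30 weeks and 600.4 CPM in P301S neg. Those 4 values were within a narrow range, so that within this cluster the level was close in P301S hom and P301S neg. In cluster 22 it stood at 1543, 1233 and 1402 CPM in the 3 P301S hom libraries, against 913 CPM (802 to 1035) in P301S neg. In cluster 0, led by Ccl3 and C1qa, it stood at 1313, 1062 and 1165 CPM, against 807 CPM (702 to 925) in 36 cells of P301S neg. In these 2 clusters the P301S hom levels were thus above P301S neg, though the cell states within cluster 22 were not compared between libraries. In cluster 2 the 3 P301S hom libraries had 1725, 1562 and 1638 CPM, and in cluster 3 they had 1842, 1773 and 1919.5 CPM, each well above cluster 5. Mmp12-high cells had 1678, 1683 and 1841 CPM of Timp2 against 1498, 1327 and 1445 CPM in the cells without Mmp12 of the same libraries, a smaller gap than that between clusters.

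Outside microglia, Timp2 was steady in ependymal-like cells, at 391, 408, 388 and 389 CPM in the library labelled CD8 KO, P301S hom at 33 weeks, P301S hom at 30 weeks and P301S neg. Fibroblast-like cells had 1214, 1458, 991 and 889 CPM from 38, 21, 37 and 34 cells in the same order. Neutrophil-like cells had 208, 236, 189 and 184 CPM. Astrocyte-like cells had 486, 359, 723 and 84.6 CPM from 25, 34, 36 and 41 cells in that order. P301S hom at 30 weeks was 8.55-fold above P301S neg there (4.96 to 15.96). In astrocyte-like cells with under 10 C1qa UMIs the levels were 469, 359, 442 and 21.1 CPM, the last on 3 UMIs. A single cell held 53 of the 172 Timp2 UMIs of P301S hom at 30 weeks, and another 9 of the 14 of P301S neg. Endothelial-like cells had 37.4 CPM (33.3 to 41.8) within the library labelled CD8 KO, 24.1 CPM (20.2 to 28.5) in P301S hom at 33 weeks, 36.3 CPM (31.8 to 41.2) in P301S hom at 30 weeks and 19.9 CPM (17.6 to 22.5) in P301S neg, a level 1.82-fold higher in P301S hom at 30 weeks than in P301S neg (1.52 to 2.18). C1qa, a microglial transcript, moved with it in those cells, at 138, 87.8, 145 and 21.0 CPM, and its part in the result was not tested. In erythroid-like cells Timp2 was at 116, 15.9, 70.9 and 7.99 CPM beside C1qa at 788, 161, 408 and 74.3 CPM. A single erythroid-like cell held 50 of the 108 Timp2 UMIs within the library labelled CD8 KO and another 35 of 158 in P301S hom at 30 weeks, and without them the levels were 64.2 and 55.9 CPM.

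Mmp14, a membrane-anchored protease that activates proMmp2, was low in microglia-like cells but higher in all 3 P301S hom libraries. Its level was 31.8 CPM (29.5 to 34.2) within the library labelled CD8 KO, 24.2 CPM (21.7 to 26.9) in P301S hom at 33 weeks, 30.7 CPM (28.4 to 33.2) in P301S hom at 30 weeks and 14.3 CPM (11.46 to 17.6) in P301S neg. It was found in 23.1%, 17.5%, 24.4% and 6.11% of cells, and in 3.06%, 1.97%, 2.64% and 1.63% after thinning, against 4.29%, 0.654%, 3.52% and 2.13% of B-cell-like cells. The thinned shares are near the level of a single UMI, and no order is read from them. P301S hom at 30 weeks was 2.15-fold above P301S neg (1.72 to 2.72), the library labelled CD8 KO 1.04-fold above P301S hom at 30 weeks (0.930 to 1.15), and P301S hom at 33 weeks 0.789 times it (0.690 to 0.901). In cluster 5 it was at 18.2, 20.6, 16.2 and 14.8 CPM, and in cluster 2 at 37.9, 29.4 and 32.2 CPM in the P301S hom libraries. Mmp12-high cells had 24.7, 34.1 and 23.8 CPM of Mmp14 against 30.1, 23.3 and 30.5 CPM in cells without Mmp12, with no common direction.

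Mmp2, gelatinase A, was lower in the microglia-like cells of P301S hom at 30 weeks than of P301S neg. It stood at 8.96 CPM (7.78 to 10.3) within the library labelled CD8 KO, 6.84 CPM (5.54 to 8.34) in P301S hom at 33 weeks, 8.44 CPM (7.24 to 9.78) in P301S hom at 30 weeks and 15.3 CPM (12.3 to 18.7) in P301S neg, from 207, 97, 176 and 94 UMIs. The P301S neg level lay above the intervals of all 3 P301S hom libraries, whose own intervals overlapped. The ratio of P301S hom at 30 weeks to P301S neg was 0.553 (0.428 to 0.718). On a scale normalised by trimmed mean of M values, which sets the middle of all genes level, that difference shrank to -0.42 on the log2 scale and was no longer past 1.5-fold. It was found in 7.95%, 5.61%, 7.78% and 6.72% of cells, and in 0.917%, 0.657%, 0.633% and 1.37% after thinning, against 0% of B-cell-like cells in all 4 libraries. Cluster 5 had 19.4, 17.9, 16.2 and 15.4 CPM, close to each other and above the 6.22, 4.45 and 6.49 CPM of cluster 2 in the P301S hom libraries. Mmp12-high cells held 1, 3 and 2 Mmp2 UMIs.

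Per cell class, Mmp2 and Mmp14 reached their higher levels in fibroblast-like and glial cells. In fibroblast-like cells Mmp2 was at 142, 133, 209 and 153 CPM in the library labelled CD8 KO, P301S hom at 33 weeks, P301S hom at 30 weeks and P301S neg, from 21 to 49 UMIs each. Schwann-like cells had 40.1, 28.6, 51.9 and 51.3 CPM and oligodendrocyte precursor-like cells 64.9, 58.8, 79.4 and 33.1 CPM in the same order. Mmp14 in fibroblast-like cells was at 81.5, 146, 76.9 and 124 CPM, and in Schwann-like cells at 66.8, 85.7, 58.4 and 92.4 CPM. All these classes are small, and between libraries the counting intervals of each gene overlapped in each class. Microglia-like cells, the largest class, held 68.8%, 69.8%, 65.9% and 56.0% of the Mmp2 UMIs and 78.6%, 74.6%, 82.1% and 33.0% of the Mmp14 UMIs of the 4 libraries.

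Over the members, 6 of 8 could be measured in microglia-like cells between P301S hom and P301S neg at 30 weeks, which needs at least 20 UMIs over both libraries. Mmp12, Timp2 and Mmp14 were at least 1.5-fold higher and Mmp2, Mmp8 and Timp3 at least 1.5-fold lower, where 11.8% of all measured genes were higher by that much and 36.3% lower. Of the lower ones, Timp3 stood at 1.87 CPM in P301S hom against 5.36 CPM in P301S neg beside the endothelial marker Cldn5 at 2.06 against 12.8 CPM, and Mmp8 at 0.959 CPM against 1.46 CPM, on 20 against 9 UMIs, beside the neutrophil gene S100a8 at 38.2 against 67.5 CPM; the part of those transcripts was not tested. The median log2 ratio over the 6 was 0.22 and over all measured genes -0.38. Mmp12 was measured only because of its level in P301S hom, so it had to differ. Between the library labelled CD8 KO and P301S hom at 30 weeks, 7 could be measured, of which Timp1 was higher and Mmp8 lower, against 4.49% of genes higher and 2.71% lower. Mmp8 was lower on 12 against 20 UMIs beside S100a8 at 11.8 against 38.2 CPM, and the part of neutrophil transcripts was not tested. Timp1 reached the minimum of 20 UMIs only through its 17 UMIs within the library labelled CD8 KO, so it had to come out higher. Of these 17, 10 were in cluster 0, where 0.281% of 713 cells were positive. Between P301S hom at 33 and at 30 weeks, 6 could be measured, of which Mmp8 was higher, on 27 against 20 UMIs and beside S100a8 at 51.0 against 38.2 CPM, and none was lower, against 3.08% and 3.18% of genes.

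**Figure D4:**
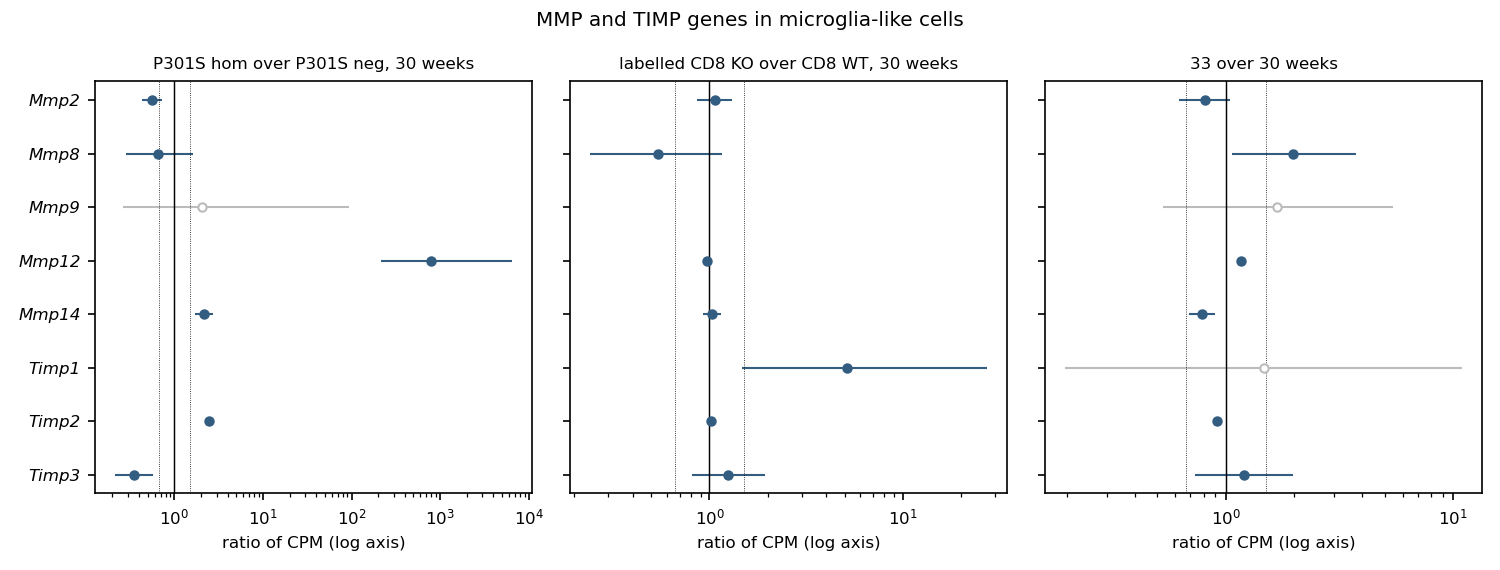
Ratio of each member's CPM in microglia-like cells in the 3 comparisons (P301S hom over P301S neg at 30 weeks, CD8 KO as labelled over CD8 WT, and 33 over 30 weeks), on a log axis with exact 95% intervals; open grey points rest on under 20 UMIs and dotted lines mark 1.5-fold. Mmp12, Timp2 and Mmp14 lie to the high side and Mmp2 to the low side in the first comparison, and in the other two the points on many UMIs lie inside the dotted lines.

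Mmp8, neutrophil collagenase, and Mmp9, gelatinase B, are stored in neutrophil granules, and both were genes of neutrophil-like cells in all 4 libraries. Mmp8 stood at 2199 CPM (2085 to 2317) within the library labelled CD8 KO, 2038 CPM (1975 to 2103) in P301S hom at 33 weeks, 1329.7 CPM (1288 to 1372) in P301S hom at 30 weeks and 1576 CPM (1529 to 1623) in P301S neg. Mmp9 stood at 1028 CPM (951 to 1110), 1020 CPM (975.5 to 1066), 699.7 CPM (670 to 731) and 929 CPM (893 to 965) in that order. P301S hom at 30 weeks was the lowest of the 4 for both genes, and the library labelled CD8 KO and P301S hom at 33 weeks had overlapping intervals for both. The library labelled CD8 KO was 1.65-fold above P301S hom at 30 weeks for Mmp8 (1.55 to 1.76) and 1.47-fold for Mmp9 (1.34 to 1.61). P301S hom at 33 weeks was 1.53-fold (1.47 to 1.60) and 1.46-fold (1.37 to 1.55) above the same library. Between P301S hom and P301S neg at 30 weeks the ratio was 0.844 for Mmp8 (0.808 to 0.881) and 0.753 for Mmp9 (0.711 to 0.799). All 3 comparisons share the P301S hom library at 30 weeks, the lowest of the 4.

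Shares of positive neutrophil-like cells were close as deposited. After thinning P301S hom at 30 weeks was the lowest for both genes, though near P301S neg for Mmp8. Mmp8 was found in 73.9%, 73.1%, 70.4% and 69.8% of cells in the library labelled CD8 KO, P301S hom at 33 weeks, P301S hom at 30 weeks and P301S neg, and after thinning in 68.8%, 69.4%, 62.5% and 63.5%. Mmp9 was found in 79.1%, 77.9%, 76.4% and 81.01%, and after thinning in 64.1%, 65.0%, 55.7% and 65.6%. Median depth in neutrophil-like cells was 1931, 2158, 2772 and 2578 UMIs, and 0.0994 to 0.623% of endothelial-like cells had an Mmp8 UMI and 0 to 0.680% an Mmp9 UMI.

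Both levels differed widely between neutrophil-like clusters. Cluster 10, led by Camp and Ngp, genes of immature neutrophils, had 91.5, 37.0 and 8.33 CPM of Mmp8 in P301S hom at 33 weeks, P301S hom at 30 weeks and P301S neg. Cluster 32, led by S100a8 and S100a9, had 2294, 2414, 1751 and 1996 CPM in the library labelled CD8 KO, P301S hom at 33 weeks, P301S hom at 30 weeks and P301S neg. Cluster 14, led by Retnlg, a gene of mature neutrophils, had 3842, 3625, 2891 and 3157 CPM in the same order. Mmp8 thus kept the order of the class within cluster 14, with the library labelled CD8 KO highest and P301S hom at 30 weeks lowest. Mmp9 was at 1218, 1326, 898 and 1145 CPM in cluster 32, but at 1449.8, 1487, 1505 and 1852 CPM in cluster 14, where P301S hom at 30 weeks was not the lowest. Cluster 14 was 55.9%, 52.5%, 43.1% and 53.4% of the class, lowest in P301S hom at 30 weeks, so the make-up of the class moved with both levels and its part in the class ratios was not tested.

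In neutrophil-like cells 4 members could be measured in each comparison. Mmp8 and Mmp12 were at least 1.5-fold higher in the library labelled CD8 KO than in P301S hom at 30 weeks, and none was lower, where 15.8% of all measured genes were higher and 14.6% lower. All 21 Mmp12 UMIs there came from 1 cell, which also held 515 UMIs of S100a8 and 1 of C1qa, against 1 Mmp12 UMI in P301S hom at 30 weeks. Between P301S hom at 33 and at 30 weeks Mmp8 and Timp3 were higher, Timp3 on 14 against 13 UMIs, and none was lower, against 8.1% and 11.1% of genes. Between P301S hom and P301S neg Timp3 was lower and none was higher, against 11.1% and 4.96%. Mmp8 was also found in monocyte-like cells, at 192, 163, 149 and 244 CPM in the library labelled CD8 KO, P301S hom at 33 weeks, P301S hom at 30 weeks and P301S neg. A single cell held 39 of the 164 UMIs of P301S neg, and without the highest cell of each library the levels were 172, 148, 139 and 189 CPM.

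Timp1, an inhibitor that astrocytes and fibroblasts are known to induce after injury, was found mainly in 2 small classes. Astrocyte-like cells had 403 CPM (298 to 533) within the library labelled CD8 KO, 484 CPM (385 to 602) in P301S hom at 33 weeks, 786 CPM (678 to 907) in P301S hom at 30 weeks and 0 in P301S neg. These values rest on 25, 34, 36 and 41 cells and on 49, 81, 187 and 0 UMIs, and 3 counts in P301S neg would be 18.1 CPM. The level of P301S hom at 30 weeks was thus at least 43.4-fold higher than P301S neg, and the library labelled CD8 KO was 1.95-fold lower and P301S hom at 33 weeks 1.62-fold lower than P301S hom at 30 weeks. Positive cells were 40.0%, 52.9% and 47.2% in the 3 P301S hom libraries, against 0 of 41 cells in P301S neg, where 3 counts would be a share of 7.32% of cells with a UMI, not of cells expressing the gene. After thinning the shares were 19.2%, 26.9% and 0% in P301S hom at 33 weeks, P301S hom at 30 weeks and P301S neg, and B-cell-like cells had 0 to 0.654%.

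Single cells weighed on the astrocyte-like values of the 3 P301S hom libraries. The cell with the most Timp1 held 14, 21 and 79 UMIs of it within the library labelled CD8 KO, P301S hom at 33 weeks and P301S hom at 30 weeks, and without it the levels were 387, 390.3 and 520.4 CPM. The zero in P301S neg against the levels of the P301S hom libraries did not rest on 1 cell, whereas the differences among the P301S hom libraries shrank. In cells with under 10 C1qa UMIs the levels were 419, 484, 1002 and 0 CPM. The astrocyte intermediate filament gene Gfap was also far apart in these cells, at 4329.8, 5789 and 4717 CPM in the 3 P301S hom libraries, against 338 CPM in P301S neg. Aqp4, a water channel, was at 3992, 6321 and 4137 CPM against 949 CPM, while Aldoc was at 4371, 4061 and 3035 CPM against 4931 CPM.

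In fibroblast-like cells Timp1 had another order. The level was 833 CPM (738 to 937) within the library labelled CD8 KO, 583 CPM (470.2 to 715) in P301S hom at 33 weeks, 149.5 CPM (104 to 208) in P301S hom at 30 weeks and 222 CPM (169.9 to 285) in P301S neg. It was found in 12, 12, 11 and 10 cells of those libraries, close to each other, and the highest single cell held 137, 71, 10 and 21 UMIs. The library labelled CD8 KO was 5.57-fold above P301S hom at 30 weeks (3.91 to 8.17), and P301S hom at 33 weeks 3.901-fold above it (2.62 to 5.93). Without the highest cell of each library the levels were 436, 143, 117 and 149 CPM. The value of P301S hom at 33 weeks thus rested mostly on 1 cell and that of the library labelled CD8 KO in part. Between P301S hom and P301S neg at 30 weeks the ratio was 0.673 (0.431 to 1.04).

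Other classes held little Timp1. Microglia-like cells had 17, 3, 3 and 0 UMIs within the library labelled CD8 KO, P301S hom at 33 weeks, P301S hom at 30 weeks and P301S neg, a ratio of 5.11 (1.48 to 27.2) between the library labelled CD8 KO and P301S hom at 30 weeks. Schwann-like cells had 46.8, 628, 90.9 and 20.5 CPM in the same order, where 43 of the 44 UMIs of P301S hom at 33 weeks were in 1 cell. Fibroblast-like cells held 72.6%, 36.9%, 13.9% and 65.6% of all Timp1 UMIs and astrocyte-like cells 12.9%, 32.5%, 74.5% and 0%. Over the members, 5 of 8 could be measured in fibroblast-like cells, and Timp1 alone was at least 1.5-fold higher in the library labelled CD8 KO than in P301S hom at 30 weeks, with none lower, where 16.4% of genes were higher and 14.2% lower. Between P301S hom and P301S neg Mmp14 was lower and none was higher, against 21.3% and 11.9%. Mmp14 there rested on 18 against 34 UMIs, and the interval of its ratio, 0.621 (0.330 to 1.13), included equal levels.

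Timp3, an inhibitor that is held in the extracellular matrix, was high in endothelial-like cells and also in smooth muscle-like, fibroblast-like and Schwann-like cells. Endothelial-like cells had 1102 CPM (1079 to 1125) within the library labelled CD8 KO, 1257 CPM (1228 to 1287) in P301S hom at 33 weeks, 1057 CPM (1033 to 1083) in P301S hom at 30 weeks and 898 CPM (882 to 914) in P301S neg. P301S neg was the lowest and P301S hom at 33 weeks the highest, with the intervals of the other two just overlapping. The share of positive cells was 84.3%, 84.4%, 81.9% and 82.7%, and after thinning 53.6%, 55.3%, 49.7% and 45.3%, against 0 to 2.44% of B-cell-like cells. P301S hom at 30 weeks was 1.18-fold above P301S neg (1.14 to 1.21), the library labelled CD8 KO 1.04-fold above P301S hom at 30 weeks (1.01 to 1.08) and P301S hom at 33 weeks 1.19-fold above it (1.15 to 1.23). All 3 ratios were under 1.5-fold.

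Sex moved with Timp3 where a library held both sexes. Endothelial-like cells with male transcripts had 1420.0 CPM and those with female transcripts 1113 CPM in P301S hom at 33 weeks, and the levels were 1109 CPM in male and 768 CPM in female cells of P301S neg. In the library labelled CD8 KO, male cells had 1133 CPM, and in P301S hom at 30 weeks, female cells had 1079 CPM. Male cells were higher in both mixed libraries, each of which had 2 mice, so that sex and mouse cannot be told apart. Within female cells, P301S hom at 30 weeks stood above P301S neg by more than in the pooled cells.

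Timp3 varied more between endothelial clusters than between libraries. In cluster 18, led by Ly6c1 and Tm4sf1, it was at 1908, 2361, 1808 and 1376 CPM in the library labelled CD8 KO, P301S hom at 33 weeks, P301S hom at 30 weeks and P301S neg, and in cluster 7 at 478, 541, 421 and 369 CPM. P301S hom at 33 weeks was the highest and P301S neg the lowest in each of the 2 clusters. A cluster of mixed vascular markers that took no class name, led by Rgs5 and Acta2, had 2458, 3014, 2565 and 1853 CPM in the same order. Smooth muscle-like cells had 813, 837, 917 and 825 CPM, fibroblast-like cells 703, 761, 940 and 878 CPM, and Schwann-like cells 789, 928, 870 and 996 CPM. A single Schwann-like cell held 49 of the 97 UMIs of P301S neg, and without the highest cell of each library the levels there were 750.1, 872, 766 and 608 CPM.

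In endothelial-like cells, 3 members could be measured between P301S hom and P301S neg, and Timp2 alone was at least 1.5-fold higher with none lower, against 4.62% of genes higher and 6.53% lower. Between the library labelled CD8 KO and P301S hom at 30 weeks 3 could be measured, of which Timp1 was higher on 14 against 7 UMIs and none was lower, against 3.1% and 3.86%. Between P301S hom at 33 and at 30 weeks 2 could be measured, of which Timp2 was lower and none was higher, against 5.13% and 3% of genes. Timp2 there was 1.51-fold lower, beside the lower C1qa given above.

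The remaining classes held the members on few UMIs. In ependymal-like cells, 4 members could be measured between P301S hom and P301S neg, of which Mmp8 was lower, on 0 against 23 UMIs, 13 of them in 1 cell, and none was higher, against 7.34% of genes lower and 5.09% higher. Mmp8 reached the minimum of 20 UMIs there only through P301S neg, so it had to come out lower. In the library labelled CD8 KO against P301S hom at 30 weeks Mmp14 was the 1 member of 3 that was higher, on 35 against 20 UMIs, and none was lower, against 6.86% of genes higher and 6.38% lower. Between P301S hom at 33 and at 30 weeks none of 3 was past 1.5-fold, against 7.48% and 5.41%. Timp2 and Timp3 in ependymal-like cells thus stayed within 1.5-fold in all 3 comparisons.

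In monocyte-like cells, Mmp8 and Timp2 could be measured. Between P301S hom and P301S neg Timp2 was higher, on 41 against 24 UMIs, and Mmp8 lower, in part on the single cell given above, against 8.92% of genes higher and 10.6% lower, and Timp2 was lower at 33 than at 30 weeks, on 25 against 41 UMIs, against 7.41% lower and 11.4% higher. B-cell-like cells had Mmp12 higher in P301S hom than in P301S neg, on 216 against 0 UMIs, all 216 in 1 cell, and Timp3 lower, on 3 against 25, of which 1 cell held 16, of 3 measured, against 4.44% and 36.8%. On account of that cell Mmp12 was also lower in the library labelled CD8 KO and in P301S hom at 33 weeks than in P301S hom at 30 weeks, with Timp2 higher in both, on 25 and 31 against 12 UMIs, of which 1 cell each held 18 of the 25 and 16 of the 31, against 25.3% of genes higher and 10.6% lower in the first and 15.7% and 7.5% in the second. T-cell-like cells had Timp2 higher in the library labelled CD8 KO than in P301S hom at 30 weeks, on 71 against 28 UMIs, of which 1 cell each held 39 and 20, the 1 member measured, against 24.6% higher and 9.19% lower. At 33 against 30 weeks Timp3 was higher there, on 30 UMIs, 25 of them in 1 cell, against 3, and Timp2 was not past 1.5-fold, against 14.6% and 12% of genes. Mmp12 in B-cell-like cells and Timp3 in B-cell-like and T-cell-like cells reached the minimum of 20 UMIs only through the library where they were high. Their direction followed from that minimum.

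Erythroid-like cells, whose C1qa is given above, had Mmp12 and Timp2 higher and Timp3 lower of 4 measured members between P301S hom and P301S neg, against 37.5% and 2.43% of genes. Mmp14 and Timp2 were higher and Mmp12 lower of 3 in the library labelled CD8 KO than in P301S hom at 30 weeks, against 7.18% and 22.7%. For Timp2 this rested in part on the single erythroid-like cell given above. Mmp12 and Timp2 were lower of 3 at 33 than at 30 weeks, and none was higher, against 19.8% and 3.95%. Mmp12 reached the minimum of 20 UMIs only through the 30 UMIs of P301S hom at 30 weeks, 24 of them in 1 cell. Its direction in each comparison followed from that.

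Other genes of the MMP system were counted over 6 lists of 64 genes, each of which is to be read against the share of all measured genes past 1.5-fold. In microglia-like cells between P301S hom and P301S neg, matrix substrates had 3 of 4 measured genes higher and 1 lower, with a median log2 ratio of 2.72 against -0.38 over all genes, of which 11.8% were higher and 36.3% lower. Spp1 was 65.9-fold higher, Fn1 23.3-fold and the laminin gene Lamc1 1.93-fold, and Sparc, a secreted matrix-binding protein, was 2.28-fold lower. The plasmin system had 2 of 6 genes higher and 1 lower (median 0.38). Plaur, the urokinase receptor, was at 226 CPM in P301S hom against 60.7 CPM in P301S neg, and Plau, urokinase, at 63.0 CPM against 28.7 CPM, while Plat was 1.59-fold lower. Among ADAM and ADAMTS proteases 1 of 7 was higher and 2 lower (median -0.11), with Adam8 at 50.3 CPM against 2.76 CPM, Adamts1 2.37-fold lower and Adam10, a membrane sheddase, 1.61-fold lower.

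Inducer and co-factor genes had 1 of 6 higher and 2 lower in the same comparison (median 0.17), against 11.8% and 36.3% of all measured genes. Cd44 was at 68.0 CPM in P301S hom against 6.33 CPM in P301S neg, and Itgb3 was 2.27-fold lower. Of 17 other MMP genes in the tables only 2 could be measured, Mmp19, 6.45-fold higher on 131 against 6 UMIs, and Mmp11, 40.6-fold lower on 2 against 24 UMIs. Neither of the 2 other inhibitors, Timp4 and Reck, could be measured. In the comparison of 33 with 30 weeks no list gene was past 1.5-fold in microglia-like cells, where only 3.08% of all measured genes were higher and 3.18% lower. With the library labelled CD8 KO, Mmp25 and Reck were higher and Col4a1 lower than in P301S hom at 30 weeks, each on 22 UMIs or fewer per library. Of all measured genes 4.49% were higher and 2.71% lower in that comparison.

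In endothelial-like cells between P301S hom and P301S neg, Plaur was at 286 CPM against 134 CPM and Plat, tissue plasminogen activator, at 909 CPM against 447 CPM, so 2 of 5 plasmin system genes were higher and none lower, against 4.62% of all measured genes higher and 6.53% lower. ADAM and ADAMTS proteases had 3 of 11 higher, among them Adamts4 (3.31-fold) and Adamts9 (2.19-fold), and 1 lower. Mmp15, a membrane MMP, was 1.86-fold lower and Timp4, an inhibitor of vessels and astrocytes, 2.93-fold lower. Timp4 stood at 0.245 CPM in the library labelled CD8 KO, 13.5 CPM in P301S hom at 33 weeks, 4.61 CPM in P301S hom at 30 weeks and 13.5 CPM in P301S neg. It was found in 2, 10, 7 and 30 cells, and the highest single cell held 1, 33, 18 and 34 of 2, 75, 30 and 179 UMIs, so its level rested on few cells. Within cells with female transcripts the direction was the opposite, with 3.95 CPM in P301S hom at 30 weeks against 1.80 CPM in P301S neg. Plaur and Adamts9 were 1.90-fold and 2.31-fold lower in P301S hom at 33 weeks than at 30 weeks.

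In fibroblast-like cells, 9 of 14 matrix substrates were lower and none higher in the library labelled CD8 KO than in P301S hom at 30 weeks, with a median log2 ratio of -0.95 against 0.02 over all genes, of which 14.2% were lower and 16.4% higher. Versican (Vcan) was 6.17-fold, perlecan (Hspg2) 2.77-fold, Fn1 2.59-fold and Spp1 2.49-fold lower. Between P301S hom and P301S neg, 5 of 15 matrix substrates were higher and 1 lower, against 11.9% and 21.3% of all measured genes, with Vcan 7.04-fold, Col1a2 2.29-fold, Col1a1 2.17-fold and Sparc 2.05-fold higher and Eln, elastin, 7.67-fold lower. The class held 38 cells in the library labelled CD8 KO, 37 in P301S hom at 30 weeks and 34 in P301S neg. In neutrophil-like cells, Bsg, an inducer of MMPs, was 1.99-fold lower in the library labelled CD8 KO and 1.80-fold lower in P301S hom at 33 weeks than in P301S hom at 30 weeks, and Adam19 was 2.62-fold and 2.40-fold higher.

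Likeness was measured as Pearson's r of log2(CPM + 10) over 14054 genes and the 34 sums of class and library with at least 50 cells, sums that share libraries and cell types. These leave out all astrocyte-like and fibroblast-like sums and all but 1 Schwann-like sum, classes in which Timp1, Mmp2 and Mmp14 were high. The genes most like Mmp12 were Cdk18 (r = 0.930), Cxcl14 (0.901) and Dcstamp (0.899), the last a fusion protein of osteoclasts. Mmp8 was most like Il1r2 (0.994), Fpr2 (0.990) and Cd177 (0.988), and Mmp9 most like Cxcr2 (0.992), Mrgpra2a (0.991) and Ly6g (0.990), several of them neutrophil surface receptors. Timp2 was most like Cd63 (0.944), Cd9 (0.880) and Ldhb (0.816), and Mmp14 most like P3h3 (0.881), Rab34 (0.825) and Cpeb1 (0.794). Timp3 was most like Fermt2 (0.979), Dlc1 (0.969) and Rbfox2 (0.967), Timp1 most like Scn7a (0.961) and Entpd2 (0.955), and Mmp2 most like Scamp5 (0.932), Kif1a (0.909) and Elavl4 (0.899).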

How the data were processed

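Single-cell 3′ RNA libraries were made with the 10x Genomics v3.1 kit, per the labels' protocols. The authors deposited filtered matrices of whole-number UMI counts per gene and cell, made with Cell Ranger 6.0.1, per the file headers, on build mm10, per the submitters' processing notes. Mice were pooled before sequencing, and other settings are not given in the sources used here. All columns belonged to the 4 libraries. The 8 members and all gene lists were chosen with earlier results of these data known.

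Cells were required to have 500 UMIs and 200 genes, with mitochondrial UMIs no higher than 15%, and the 42 to 98 cells per library called doublets by scrublet (expected share 6%) were removed. Barcodes found in several libraries were kept. Cells were clustered with scanpy 1.11.5 and igraph 0.11.9 (2000 variable genes without any Mmp or Timp gene, 30 components, 15 neighbours, Leiden resolution 1) into 38 clusters, using Python 3.11.15, anndata 0.12.19, scikit-learn 1.9.0, pandas 2.3.3, numpy 2.4.6, matplotlib 3.10.9 and scipy 1.17.1. A cluster took the class with the highest marker levels if at least 3 of its markers were detected in 10% of cells. Clusters were set aside (7.25 to 12.0% of kept cells per library) if more of their leading genes belonged to another class. They were also set aside if the markers of an unrelated class had a median above 0.2 of their highest cluster level, or if another class stood well above their own. The names are rebuilt from markers and carry "-like" for that reason.

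UMIs were summed per class and library and divided by the class total (CPM). Levels needed 30 cells, ratios 50 cells in both libraries and 20 UMIs over both, with the limit lowered to 20 cells for astrocyte-like and fibroblast-like cells after their numbers were seen. Intervals are exact Poisson for CPM, Clopper-Pearson for shares and exact conditional binomial for ratios, at 95%. A count of 0 allows up to 3 counts. On simulated counts the ratio intervals held the true value for 95.8%, 95.6% and 95.7% of unchanged genes in the 3 microglia-like comparisons. These were P301S hom over P301S neg (11537 genes), CD8 KO over CD8 WT (12057 genes) and 33 over 30 weeks (11689 genes). The counts were drawn from the Poisson model that the intervals assume, without spread between cells, so coverage near 95% was set in advance. The simulation checks the calculation only, not how well the intervals hold in these data. Named were all 8 members, up to 4 list genes per list and comparison past 1.5-fold, largest first, and the 3 genes most like each member, some of which are not reported here; cluster-leading and marker genes are named as identity checks, and Mmp12-high cells were described by genes chosen after earlier values were seen. Alternatives were a stricter cell filter, another scaling, other count minimums, doublets kept, cells of 1 sex, other resolutions, leaving out groups of cells, and thinning.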

Additional observations from a re-analysis of the deposited data

Results flagged for a closer look

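Mmp12 moved in opposite directions in 2 leukocyte-like and blood-like classes between the library labelled CD8 KO and P301S hom at 30 weeks. The ratio was 96.4 in neutrophil-like cells, where 1 cell held all 21 UMIs of the library labelled CD8 KO, and 0.159 in erythroid-like cells, where 1 cell with 162 C1qa UMIs held 24 of the 30 UMIs of P301S hom at 30 weeks. The difference between the ratios was not tested.

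Timp2 differed in direction between classes when P301S hom at 33 weeks was set against P301S hom at 30 weeks. The ratio was 3.37 in B-cell-like cells, 0.663 in endothelial-like cells, 0.224 in erythroid-like cells and 0.538 in monocyte-like cells, and these differences were not tested. In B-cell-like cells of P301S hom at 33 weeks 1 cell held 16 of 31 UMIs, and in erythroid-like cells of P301S hom at 30 weeks 1 cell held 35 of 158.

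A signal outside the named classes was seen for Mmp12 in the neuron-marker cluster led by Calca, Sncg and Meg3, which took no class name and occurred only in the library labelled CD8 KO. Its 154 cells held 63 Mmp12 UMIs, of which 55 were in 1 cell that also had 44 C1qa UMIs. The other libraries held no cell of that cluster.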

How the results depend on the processing

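No paired analysis was possible because each group is 1 library and no replicate numbers are shared. Of 102 recomputed values of the 3 microglia-like comparisons, 87 stayed within their limits. The members at least 1.5-fold lower in P301S hom than in P301S neg, 3 as reported, numbered 1 with scaling by trimmed mean of M values, which shifts the log2 ratios of all genes, and 1 with at least 100 UMIs. Between the library labelled CD8 KO and P301S hom at 30 weeks, the higher members, 1 as reported, numbered 2 with doublets kept, 2 with cells of 1 sex, 0 with at least 100 UMIs and 0 without the low-UMI cluster 22, an alternative chosen after seeing the data; the lower members, 1 as reported, numbered 0 with at least 100 UMIs and 2 with no filter. Mmp12 in that comparison had a log2 ratio of -0.04 as reported, -0.20 with cells of 1 sex and -0.34 without the 1% of cells with the most Mmp12. Between 33 and 30 weeks its log2 ratio was 0.23, 0.34 with cells of 1 sex and 0.12 without those cells, and the higher members, 1 as reported, numbered 0 with cells of 1 sex, 0 with at least 100 UMIs and 2 with no filter. For 1 sex, male cells of the library labelled CD8 KO were set against male cells of P301S hom at 33 weeks, since P301S hom at 30 weeks held none. Single-gene log2 ratios that changed sign were Mmp8 in microglia-like cells (P301S hom over P301S neg) to 0.56, Timp1 in endothelial-like cells (CD8 KO over CD8 WT) to -0.19, Timp2 in B-cell-like cells (33 over 30 weeks) to -0.046 and Timp3 in neutrophil-like cells (33 over 30 weeks) to -1.10, all with 1 sex. With doublets kept, Timp3 in neutrophil-like cells came to -0.57 and Timp2 in T-cell-like cells (CD8 KO over CD8 WT) to -0.081, and Timp2 in erythroid-like cells (CD8 KO over CD8 WT) was -0.087 at resolution 2.0 and -0.092 at resolution 0.6. The cause was not tested in any of these. Of the other 431 values, 350 stayed, 73 moved and 8 changed sign. Each group is 1 library: mice, sex and preparation cannot be told apart from genotype and age. Depth limits Mmp2, Mmp14 and Timp1, which rest on few UMIs per cell.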

Other observations

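Other resolutions gave a pericyte-like class, which the main resolution did not separate. At resolution 2 it held 58 cells in the library labelled CD8 KO, 44 in P301S hom at 33 weeks, 38 in P301S hom at 30 weeks and 80 in P301S neg, with Timp3 at 183, 227, 156 and 85.9 CPM in that order. These levels rest on 28, 22, 14 and 17 UMIs, with intervals of 122 to 265, 142 to 344, 85.4 to 262 and 50.1 to 138 CPM, and the ratio of P301S hom at 30 weeks to P301S neg was 1.82 (0.830 to 3.92).

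The neuron-marker cluster of the library labelled CD8 KO held 1096 Timp2 UMIs in 154 cells, 928 CPM. Timp2 in border macrophage-like cells was 455 CPM over the 82 cells of the 4 libraries. B-cell-like cells of P301S hom at 30 weeks held 1 cell with 216 Mmp12 UMIs, a cell that also had 73 C1qa and 15 Cd79a UMIs.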
